A study of Mus musculus with 8 samples.

Results

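The genes described here encode the proteins of the cytosolic ribosome. They were chosen by symbol alone, as mouse genes named Rpl or Rps followed by a number, by p0 to p2 or by a, with at most one of the letters a, l, x or y after the number. This gave 80 genes (46 of the large subunit, 31 of the small subunit and 3 of the stalk) of 30406 gene IDs that the matrices of both replicates list. Islets of male C57BL6/J mice, 12 to 16 weeks old, were pooled from 10 mice for each of 2 replicates, and each pool was divided over 4 conditions and cultured for 18 h. The 4 groups were untreated islets, islets with human recombinant IL-1β (10 U/mL) and mouse IFN-γ (150 U/mL), called cytokines below, islets with these cytokines and 2 mM NMMA, an inhibitor of nitric oxide synthase, and islets with 2 mM NMMA alone. Whole islets were treated, so that every cell type of an islet shared the medium. Droplet-based sequencing of dispersed cells then gave 8 libraries, 1 per group and replicate. A replicate is a pool of islets, so that p-values of the main fits within a class measure the spread between 2 pools and not between mice. Where a fit takes out differences between libraries or pools, its p-values measure the spread that remains, again not that between mice.

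A ribosome is built of a large and a small subunit, each a folded ribosomal RNA that holds many different proteins. The small subunit reads the mRNA, the large subunit joins amino acids, and the stalk, made of Rplp0, Rplp1 and Rplp2, recruits the elongation factors. Because each protein is needed in about equal number, their mRNAs are abundant in all cells, and in mammals many start with a C followed by a run of pyrimidines, the terminal oligopyrimidine (TOP) tract, through which mTOR signaling controls their translation. β-cells devote much of their translation to insulin, and nitric oxide made by inducible nitric oxide synthase after IL-1β and IFN-γ is known to inhibit mitochondrial respiration and protein synthesis in them.

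The sequence at the start of the gene was not used by the rule, and the start sites of 7 members that recur below and hold a pyrimidine run are printed here, 30 bases each, from RefSeq promoters on GRCm38.p6. Capitals mark a run of at least 8 pyrimidines that begins with C within 10 bases of the annotated start, and the start lies in the middle of each run of 30. The first has one of the largest changes with cytokines in β-cells, the next 3 have the smallest called ones, the fifth differed most between the replicates, and the others are the most abundant member with such a run and a stalk gene.
Rps27 (chr3:90213634-90213663, minus strand): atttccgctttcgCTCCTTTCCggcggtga
Rpl15 (chr14:18270972-18271001, minus strand): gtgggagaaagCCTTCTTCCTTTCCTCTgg
Rps26 (chr10:128626492-128626521, minus strand): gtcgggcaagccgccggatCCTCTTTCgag
Rpl18 (chr7:45718056-45718085, plus strand): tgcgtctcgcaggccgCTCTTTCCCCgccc
Rpl13a (chr7:45128731-45128760, minus strand): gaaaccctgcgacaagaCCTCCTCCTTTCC
Rps24 (chr14:24490663-24490692, plus strand): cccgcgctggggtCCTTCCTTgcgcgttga
Rplp2 (chr7:141447636-141447665, plus strand): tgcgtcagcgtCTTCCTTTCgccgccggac

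Of the 80 genes 60 have a promoter in the RefSeq table, and 20 of these (33.3%) hold such a run at the annotated start, against 8.03% of all 27025 promoters. The letters CTTTCC, which can lie inside the run, were found on the strand of the gene within 20 bases of the start in 10 of the 60 (16.7%, against 1.90% of all promoters). CCGGAAG, the core that ETS family factors bind, was found on either strand in the 300 bases of 24 (40.0%, against 9.12%). TATAAA, the TATA box, was found on either strand in 5 (8.33%, against 14.2%). These matches describe letters, and a missing match says only that the letters are not in these windows. In β-cells the 20 members with a run at the start had a median log2 change with cytokines of 0.68, and the 37 tested members without one had a median of 0.69.

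Of 17426 barcodes 10876 passed the limits on detected genes and mitochondrial UMIs (unique molecular identifiers, each of which counts 1 captured RNA molecule at its 3′ end). The 8 matrices hold 26549922 to 50731370 UMIs each. Cells were clustered without the 80 genes, and clusters were named from fixed marker genes, which gave 6282 β-cells, 625 α-cells, 297 δ-cells, 283 endothelial cells, 268 macrophages and 108 mesenchymal cells. Of the markers of each class, in untreated libraries 9 of 10 were at their highest level in β-cells, 7 of 9 in α-cells, 6 of 7 in δ-cells, 9 of 9 in endothelial cells, 11 of 11 in macrophages and 10 of 10 in mesenchymal cells. Among the exceptions were Npy for β-cells, Rgs2 for δ-cells and Tmem27, with no entry under this symbol, for α-cells. In cytokine-treated libraries the counts were 8 of 10, 6 of 9, 4 of 7, 9 of 9, 11 of 11 and 9 of 10 in the same order, and some clusters of cytokine-treated cells in the first clustering, among them those led by Il4i1 and Timp3, had none of the markers of their class among their 10 leading genes. The same held for 1 cluster led by Glp1r, mostly of untreated and NMMA-treated β-cells, and 1 led by Hspa1a. A further 139 cells led by Ppy and Pyy carried more α-cell markers than PP-cell markers, so that they were not named PP-cells, and 2733 barcodes stayed unnamed. Any pair of libraries shared at most 5 barcodes, and no pair shared more than 0.2492% of the smaller library.

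Cells of different conditions fell mostly into different clusters of the same class. Untreated and NMMA-treated β-cells lay in a cluster led by Mafa in replicate 1 and one led by Glp1r in replicate 2, and cytokine-treated β-cells lay in a cluster led by Il4i1 in replicate 1 and one led by Cfb in replicate 2. β-cells with cytokines and NMMA lay in a cluster led by Lcn2 in replicate 1 and in the Cfb-led cluster in replicate 2, while a cluster led by Hspa1a held cells of all 8 libraries. Endothelial cells were divided in the same way, with untreated cells in a cluster led by Fabp4 and cytokine-treated cells in one led by Timp3. The values below therefore compare whole classes, whose cells differ between conditions in many genes.

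UMIs of each class were summed per library, and levels are given as CPM, the UMIs of a gene per 1000000 UMIs of the class in that library. A UMI marks 1 molecule whatever its length, so these levels carry no correction for length. δ-cells and mesenchymal cells with cytokines in replicate 1 were left out, with 7 cells each, so that these classes have 1 cytokine-treated library. In each class 77 of the 80 genes passed the filter on low counts. The other 3 are paralogs with restricted expression, Rpl3l, the striated muscle paralog of Rpl3, and Rpl10l and Rpl39l, which are known from the testis. Over the 8 β-cell libraries Rpl3l had 1 UMI, Rpl39l had 2 and Rpl10l had 0, which allows up to 3 UMIs and covers counting error only. Rps27l, a p53-responsive paralog of Rps27, was measured in all classes, with 44017 UMIs in β-cells.

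The share of all UMIs that came from the 80 genes differed between classes and conditions. In untreated β-cells it was 6.98% in replicate 1 and 8.01% in replicate 2 (mean 7.49% ± 0.730 SD, n = 2), and with cytokines it was 9.52% and 10.97% (10.24% ± 1.03, n = 2). With cytokines and NMMA it was 7.75% and 8.44%, and with NMMA alone 6.82% and 8.17%. Both cytokine-treated libraries lay above the other 6 libraries, which overlap each other. Within a replicate the share was 1.36 times that of untreated β-cells in replicate 1 and 1.37 times in replicate 2. With 2 libraries in a group an exact two-sided permutation test cannot give a p below 0.333, so these shares are given as values.

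The share in α-cells was higher than in β-cells in every library. It was 10.7% and 13.4% in untreated α-cells and 15.2% and 19.1% with cytokines, where the first value is replicate 1. With cytokines and NMMA it was 9.99% and 11.8%, and with NMMA alone 10.3% and 13.7%. Both cytokine-treated libraries were again above all others of the class, by 1.43 and 1.42 times over the untreated library of the same replicate. In δ-cells the share was 8.97% and 10.7% untreated, 13.8% with cytokines in the 1 library used, 9.31% and 11.1% with cytokines and NMMA, and 7.86% and 10.2% with NMMA alone. The cytokine-treated library was the highest of the 7. Insulin UMIs were also highest in it, at 3.73%, against 0.843% and 1.77% in the untreated libraries, and their part in the δ-cell share was not tested.

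The order was turned in macrophages and endothelial cells. In macrophages the share was 8.76% and 9.76% untreated, 6.58% and 8.27% with cytokines, 5.99% and 7.02% with cytokines and NMMA, and 12.8% and 10.1% with NMMA alone. Each library with cytokines lay below each without, with or without NMMA. In endothelial cells the share was 11.6% and 11.9% untreated, 8.96% and 10.3% with cytokines, 9.27% and 10.97% with cytokines and NMMA, and 10.4% and 13.2% with NMMA alone. Here the cytokine-treated libraries lay below the untreated ones, and overlapped those with cytokines and NMMA. Mesenchymal cells had the highest untreated share, 19.99% and 20.6%, with 22.9% in the 1 cytokine-treated library and a range from 11.4% to 27.1% over the other conditions.

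**Figure D1:**
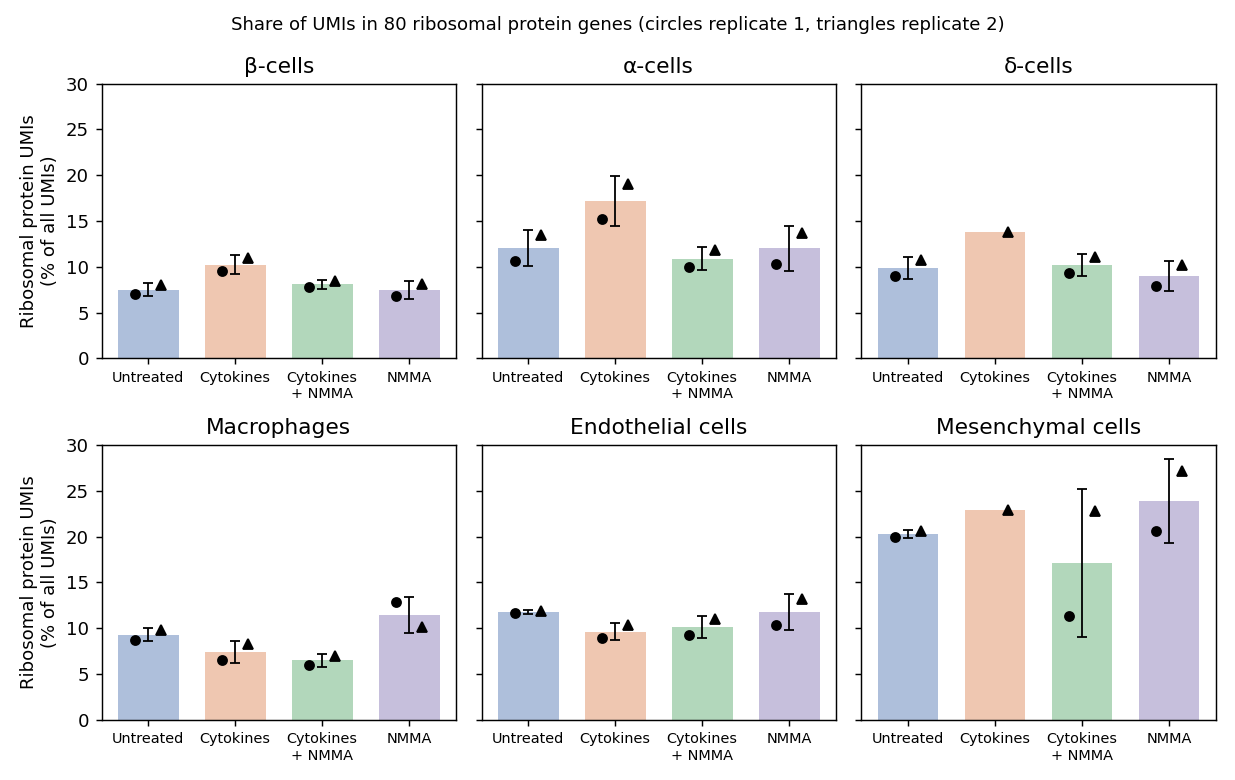
Percent of all UMIs of a class that came from the 80 ribosomal protein genes (y axis) in each condition (x axis), with 1 panel per cell class. Bars are means, error bars the SD where a condition has more than 1 library, and points the libraries (circles replicate 1, triangles replicate 2). The cytokine-treated points are the highest of their replicate in β-cells (9.52% and 10.97%) and α-cells (15.2% and 19.1%). They lie below the untreated points in macrophages and endothelial cells.

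A share depends on the other transcripts in the denominator. Insulin mRNAs (Ins1 and Ins2) held 41.9% and 39.8% of the UMIs of untreated β-cells, and 34.4% and 37.1% with cytokines. With hormone genes and mitochondrially encoded genes left out of the denominator, the log2 ratio of the mean share with cytokines to that untreated was 0.28 in β-cells in place of 0.45, 0.23 in δ-cells in place of 0.49, and 0.54 in α-cells in place of 0.51. Both δ-cell ratios set the lone cytokine-treated library, of replicate 2, against the untreated mean of both replicates. Within replicate 2 the δ-cell log2 ratio with all UMIs was 0.36. In these sums a higher level of the 80 mRNAs and a lower level of all others cannot be told apart. Insulin UMIs in α-cells, which can come from free RNA or from β-cells in the same droplet, made up 0.636% and 1.23% untreated, 3.66% and 3.42% with cytokines, and 1.36% and 4.25% with cytokines and NMMA. Their part in the α-cell results was not tested.

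In β-cells nearly all members were higher with cytokines than untreated. The median log2 change was 0.69, against -0.0015 over the 12772 genes tested, and 64 of the 77 members were called higher and 0 lower (edgeR quasi-likelihood test, Benjamini-Hochberg adjusted p below 0.05), where 23.7% of all genes were called higher. After TMM scaling all 77 were higher in both replicates, with a median log2 change of 0.65 in replicate 1 and 0.71 in replicate 2. Large and small subunit genes had similar medians, with 36 of 43 called and a median of 0.69 for the large subunit, and 25 of 31 called and a median of 0.68 for the small subunit. All 3 stalk genes rose. With total UMI scaling in place of TMM, which moves the median of all genes by -0.22, 36 were called, with a median of 0.46. Without untreated replicate 1 the count was 41, and with the replicate as a block, which removes differences that both conditions of a pool share, it was 77, where 63.0% of all genes were called.

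Rps20, a protein of the small subunit head, had the largest log2 change. Its level was 1183 and 1332 CPM in untreated β-cells and 2039.8 and 2207 with cytokines, and it was 1638 and 1666 with cytokines and NMMA and 960.4 and 1206 with NMMA alone. The 2 cytokine-treated libraries were above the other 6, and the libraries with cytokines and NMMA lay between them and the rest. Its log2 change was 0.98 (SE 0.133, edgeR adjusted p = 0.000444). The gene lies on the minus strand of chr4:3831334-3835665. Rps27, a small subunit protein with a zinc finger, rose by 0.95 (SE 0.296, adjusted p = 0.0302), from 585 and 888.6 to 954.9 and 1472 CPM, so that its untreated and treated libraries do not overlap but its replicates stand apart. Rpl35a, of the large subunit, rose by 0.92 (SE 0.174, adjusted p = 0.00262). Rpl37 (0.89) and Rps28 (0.89) had equally large log2 changes that did not pass the test.

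At the other end, Rpl41, which encodes one of the shortest known proteins, had the smallest log2 change of the 77, 0.28 (SE 0.303, adjusted p = 0.483). Its level was 1236 and 1919.7 CPM untreated, 1314 and 1958 with cytokines, 1429 and 2152 with cytokines and NMMA, and 1493 and 2459 with NMMA alone. Within each replicate the untreated library was the lowest and the NMMA library the highest, and the replicates stood farther apart than the conditions. With the replicate as a block its adjusted p was 0.00472. Rpl15, at the base of the large subunit, rose by 0.45 (SE 0.138, adjusted p = 0.0251), Rps26, which contacts the mRNA at its exit from the small subunit, by 0.47 (SE 0.164, adjusted p = 0.0423), and Rpl18 by 0.49 (SE 0.128, adjusted p = 0.0123). Rpl13a had 0.48, with an SE of 2.31, and differed between replicates as described below.

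The stalk genes gave values in the middle of this range. Rplp0, the base of the stalk, had 1187 and 1135 CPM untreated and 1585 and 1501 with cytokines, Rplp1 had 1554 and 2069 against 2034 and 2689, and Rplp2 had 541.5 and 770.2 against 820.4 and 1147. The log2 changes were 0.63 (SE 0.140), 0.61 (SE 0.186) and 0.81 (SE 0.210), and all 3 passed the edgeR test. The paralog Rps27l rose by 0.72 (SE 0.167, adjusted p = 0.00696), from 204 and 274 to 307 and 367 CPM. The most abundant members in untreated β-cells were Rpl13, with 2126 and 1950 CPM, which placed it at rank 17 of all genes, then Rplp1, Rps24, Rpl19 and Rps14. All of them rose, with log2 changes from 0.53 for Rpl13 to 0.77 for Rps14.

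After TMM scaling the members were higher with cytokines alone than with cytokines and NMMA. Between β-cells with cytokines and those with cytokines and NMMA the median log2 difference of the members was 0.56, against -0.02 over all genes, and 46 of the 77 were called higher with cytokines alone and 0 lower, where 8.98% of all genes were called higher. On this scale all 77 were higher in both replicates, with a median of 0.48 in replicate 1 and 0.62 in replicate 2. In CPM without TMM scaling Rpl41 was lower with cytokines alone in both replicates, and Rps26 and Rpl13a were lower in replicate 1. The count of 46 rests on every library involved: it was 6 without cytokines replicate 1, 15 without cytokines replicate 2, 7 without cytokines and NMMA replicate 1 and 1 without cytokines and NMMA replicate 2. With the replicate as a block it was 74, where 40.9% of all genes were called, and with total UMI scaling 8, with a median of 0.34 against -0.23 over all genes. The comparison shares its cytokine-treated libraries with the one above, so the agreement of both in direction is no separate evidence.

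The largest difference was that of Rps7, a small subunit protein that binds MDM2. Its level was 1236 and 1380.1 CPM with cytokines, 876.1 and 915.7 with cytokines and NMMA, and 933.7 and 997.2 untreated. The libraries with cytokines and NMMA lay below the untreated ones. The log2 difference was 0.76 (SE 0.127, edgeR adjusted p = 0.00611). Rpl3, near the peptidyl transferase center (0.72, adjusted p = 0.0118), Rpl17, at the exit tunnel (0.72, adjusted p = 0.00675), and Rpl5, which carries 5S rRNA (0.70, adjusted p = 0.0168), were also called higher with cytokines alone, and Rpl10, of the large subunit, had 0.75 (adjusted p = 0.0540). The smallest differences were those of Rpl41 (0.09), Rps26 (0.20), Rpl15 (0.36), Rps19 (0.37) and Rpl18 (0.38), none of which passed the test. With the replicate as a block 74 of the 77 members were called, so that some of these genes passed in that fit.

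Neither of the other β-cell comparisons called a member. With cytokines and NMMA against untreated the median log2 change of the members was 0.12, and 0 of 77 were called by edgeR, where 22.7% of all genes were called in either direction. An unadjusted p below 0.05 was reached by 2, DESeq2 called 1, and with the replicate as a block 18 were called, all higher, where 40.9% of all genes were called. With NMMA alone the median was 0.0045, and 0 members and 0.0% of all genes were called. An unadjusted p below 0.05 was reached by 1, DESeq2 called 0, and with the block 6 were called, 5 higher and 1 lower, where 3.49% of all genes were called. All comparisons with untreated β-cells share these libraries.

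In α-cells, too, nearly all members were higher with cytokines. With cytokines against untreated the median log2 change of the members was 0.95, against -0.03 over all 9711 genes tested, and 61 of the 77 were called higher and 0 lower, where 13.6% of all genes were called higher. After TMM scaling 76 of the 77 members were higher in both replicates, and the median was 1.07 in replicate 1 and 0.87 in replicate 2. In CPM without this scaling Rps27l was lower in both replicates and Rpl41 in replicate 1. The count of 61 was 29 without untreated replicate 1 and 31 with total UMI scaling, under which the median of all genes was -0.50 and that of the members 0.48. Against cytokines with NMMA the median was 1.01, and 59 were called higher and 0 lower, where 5.99% of all genes were called higher. Without cytokines and NMMA replicate 1 this count was 26.

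Rpl17 had the largest log2 change in α-cells, 1.37 (SE 0.205, edgeR adjusted p = 0.000132), and that of Rpl10 was 1.28. Rpl10 was at 1571 and 1513 CPM untreated, 2886 and 2431 with cytokines, 1380.3 and 1082 with cytokines and NMMA, and 1236 and 1171 with NMMA alone. The cytokine-treated libraries were far above the other 6. The stalk genes rose as in β-cells, with log2 changes of 1.02 for Rplp0 (SE 0.188), 0.95 for Rplp1 (SE 0.302) and 0.95 for Rplp2 (SE 0.2997). Rpl41 (0.53) and Rps26 (0.62) had the smallest log2 changes apart from that of Rps27l, and neither passed the test. With the replicate as a block both did (edgeR adjusted p = 0.00166 and 0.000529), and 76 of the 77 members were called higher than untreated, where 30.2% of all genes were called.

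The exception was Rps27l. In α-cells its level was 555.8 and 669.2 CPM untreated, 346.8 and 551.4 with cytokines, 608.5 and 625 with cytokines and NMMA, and 629.3 and 720.8 with NMMA alone. The cytokine-treated libraries were the lowest of the 8, while in β-cells the cytokine-treated library was the highest of each replicate. After TMM scaling the log2 change in α-cells was 0.01 (SE 0.215, edgeR adjusted p = 0.972), and the test of the difference in cytokine effect between α- and β-cells, with the library as a block, gave -0.70 (SE 0.185, adjusted p = 0.0172). It was the 1 member of 77 called lower in α-cells in this test, where 2.27% of all genes were called lower, and 0 were called higher, with a median over the members of 0.34 and over all genes of -0.05. An unadjusted p below 0.05 was reached by 30 members. How many of all genes reached such a p was not counted, in this or any other comparison. With total UMI scaling such a p was reached by 4 members, and the median was 0.065 over the members and -0.32 over all genes. Without untreated replicate 1 or cytokines replicate 1 no member was called. Without untreated replicate 2 the only call was 1 member with a higher effect in α-cells, without NMMA replicate 1 or NMMA replicate 2 there were 5 members with a higher and 1 with a lower effect, and without cytokines and NMMA replicate 2 there were 3 and 1.

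**Figure D2:**
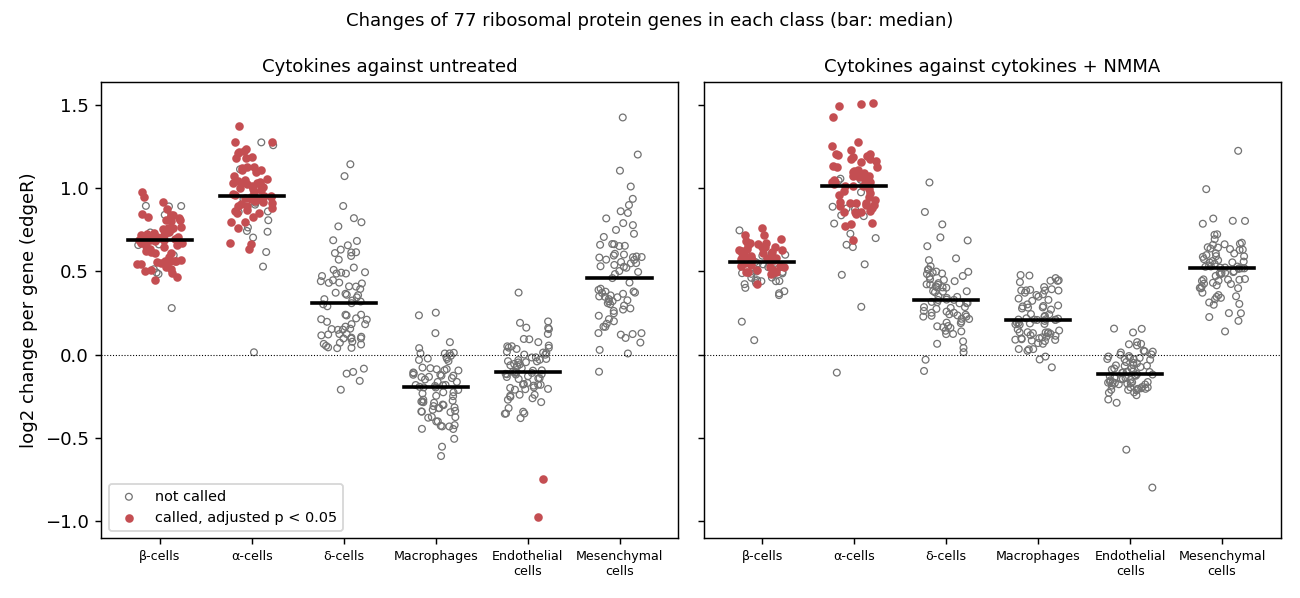
log2 change of each of the 77 tested ribosomal protein genes (y axis) for cytokines against untreated and for cytokines against cytokines with NMMA in the 6 classes (x axis), with filled points for members that passed the edgeR test and a bar at the median. The points lie above 0 in β-cells (median 0.69) and spread around 0 in macrophages and endothelial cells. In α-cells (median 0.95) they lie above 0 but for Rps27l, which is near 0 for cytokines against untreated.

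In δ-cells, with 1 cytokine-treated library, no member was called. The median log2 change was 0.31 with cytokines against untreated and 0.33 against cytokines with NMMA, and 0 of 77 were called by edgeR in either, where 7.82% and 2.81% of all genes were called. An unadjusted p below 0.05 was reached by 5 and 1 members, and DESeq2 called 0 in both. With total UMI scaling 6 members were called higher than untreated, with the replicate as a block 1, where 9.24% of all genes were called, and without untreated replicate 2 there were 4. With the block the medians were 0.10 and 0.12, and the lone cytokine-treated library is from replicate 2. It is assumed in these fits to vary like the other groups. In mesenchymal cells, also with 1 such library, the medians were 0.46 and 0.52 (0.15 and 0.31 with the replicate as a block), and 0 members were called by edgeR, where 1.66% and 0.105% of all genes were called. No member had an unadjusted p below 0.05, DESeq2 called 0, and without cytokines and NMMA replicate 1 there was 1 call, higher with cytokines.

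In macrophages the median log2 change of the members was -0.20 with cytokines against untreated, and 0.21 against cytokines with NMMA. By edgeR 0 of 77 were called in either comparison, where 4.3% and 0.0973% of all genes were called, an unadjusted p below 0.05 was reached by 1 and 0, and DESeq2 called 0. With the replicate as a block 1 member was called lower than untreated, where 8.79% of all genes were called. After TMM scaling 49 members were in both replicates lower with cytokines than untreated and 3 were higher. Rps18, of the small subunit head, was at 1126 and 1292 CPM untreated, 667 and 1025 with cytokines, 597 and 697 with cytokines and NMMA, and 1892 and 1216 with NMMA alone. Its 4 libraries with cytokines lay below the 4 without.

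In endothelial cells 2 of 77 members, Rpl3 and Rpl10a, fell with cytokines, a share near the 1.75% of all genes that were called lower. Rpl3 was at 1476 and 1206 CPM untreated, 662 and 742 with cytokines, 1046 and 992 with cytokines and NMMA, and 1044 and 1102 with NMMA alone. Rpl10a, the protein of the L1 stalk, past which the tRNA leaves the ribosome, was at 856 and 689.8 untreated, 317 and 372 with cytokines, 614 and 562 with cytokines and NMMA, and 626 and 676 with NMMA alone. For both genes the cytokine-treated libraries were the lowest of the 8, and those with cytokines and NMMA lay between them and the untreated ones. The log2 changes were -0.75 for Rpl3 (edgeR adjusted p = 0.0410) and -0.98 for Rpl10a (adjusted p = 0.0131). The count of 2 became 1 with DESeq2 and 0 without untreated replicate 1 or cytokines replicate 1, and it was 1 without any single one of the others. The median over the members was -0.10, and after TMM scaling the replicates differed, with -0.20 in replicate 1 and 0.02 in replicate 2. On this scale 34 members were lower with cytokines in both replicates and 10 were higher. Against cytokines with NMMA the median was -0.12, with 0 called by edgeR, 2 with an unadjusted p below 0.05, 0 called by DESeq2 and 0.0% of all genes called.

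Since an effect called in one class and not in another does not show that the classes differ, the difference itself was tested in a fit of both classes with the library as a block. Against β-cells the cytokine effect was lower in endothelial cells for 27 of 77 members and higher for 0, where 3.68% of all genes were called lower, and the median difference was -0.64 over the members and -0.04 over all genes. Rpl3 had the smallest adjusted p, with a difference of -1.43 (SE 0.238, edgeR adjusted p = 2.65e-07), then Rpl10a with -1.32 (SE 0.255, adjusted p = 2.02e-05) and Rps14, a small subunit protein at the platform, with -0.91 (SE 0.224, adjusted p = 0.00207). In β-cells Rpl3 went from 861 and 833 to 1381 and 1216 CPM and Rpl10a from 477.3 and 401 to 576.4 and 490.1, the opposite way to endothelial cells in both replicates. The count of 27 was 2 without untreated replicate 1, 4 without cytokines replicate 1, 2 without untreated replicate 2 and 11 without cytokines replicate 2. It was 66 with total UMI scaling and 65 with TMM scaling that leaves out hormone and mitochondrial genes, and the share of all genes called in those fits is not reported here.

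In macrophages 16 of 77 members had a lower cytokine effect than in β-cells and 0 a higher one, where 2.65% of all genes were called lower. The median difference was -0.72 over the members and -0.0095 over all genes. The smallest adjusted p-values were those of Rps27a, a fusion of ubiquitin to a ribosomal protein (-1.03, SE 0.260, edgeR adjusted p = 0.00430), Rps18 (-1.05, SE 0.266, adjusted p = 0.00440) and Rps15a (-1.03, SE 0.264, adjusted p = 0.00464). The count was 47 with TMM scaling that leaves out hormone and mitochondrial genes and 33 when cells were clustered with the members, all lower. The share of all genes called in those fits is not reported here, and the count depended on single libraries. It was 0 without untreated replicate 1 or untreated replicate 2, 1 without cytokines replicate 1 or cytokines replicate 2, and 55 without NMMA replicate 1, the library with the highest share of these genes among the macrophage libraries (12.8%).

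In δ-cells and mesenchymal cells, each with 1 cytokine-treated library, the same test called 0 of 77 members by edgeR, where 2.53% and 0.605% of all genes were called. The median difference from β-cells was -0.44 in δ-cells, against -0.21 over all genes, and -0.20 in mesenchymal cells, against -0.0073 over all genes. An unadjusted p below 0.05 was reached by 18 members in δ-cells and 0 in mesenchymal cells.

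**Figure D3:**
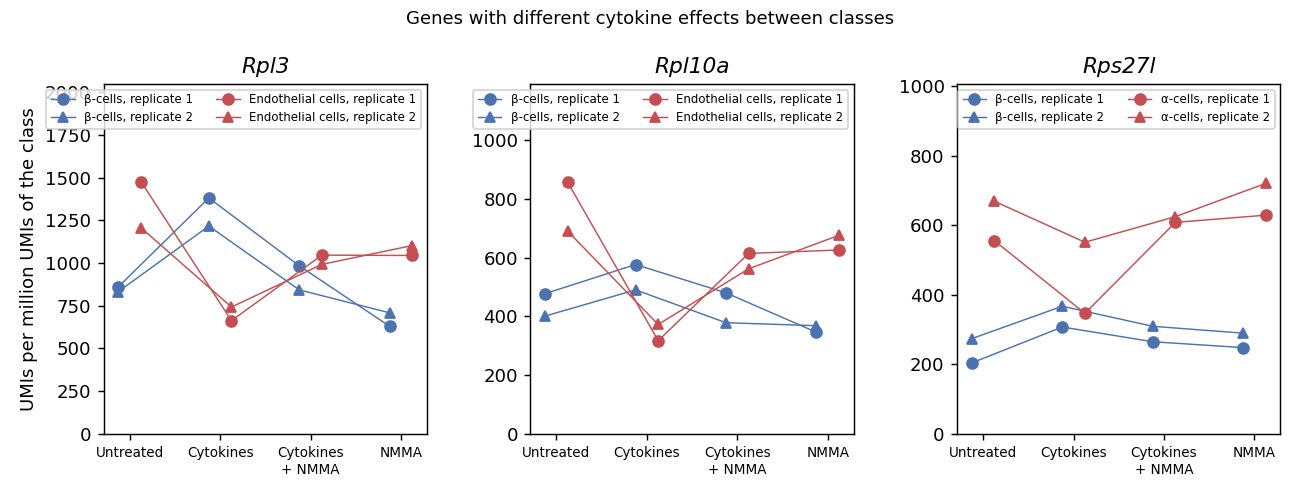
CPM (UMIs per 1000000, y axis) of Rpl3 and Rpl10a in β-cells and endothelial cells and of Rps27l in β-cells and α-cells, by condition (x axis), with 1 point per library and 1 line per replicate. With cytokines Rpl3 went from 861 and 833 to 1381 and 1216 in β-cells and from 1476 and 1206 to 662 and 742 in endothelial cells, and Rps27l was at its lowest in α-cells and, within each replicate, at its highest in β-cells.

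The levels of the members in untreated cells were also compared with those in untreated β-cells, which carry a large insulin share. The scaling decides the sign of the median in δ-cells, macrophages and endothelial cells, but not in α-cells or mesenchymal cells. After TMM scaling 15 members were higher and 1 lower in α-cells, with a median of 0.19, where 13.6% of all genes were called higher and 16.7% lower. In δ-cells 9 were lower and 0 higher (median -0.19, where 19.3% of all genes were called in either direction), in endothelial cells 45 were lower and 0 higher (median -0.39 against -0.29 over all genes, with 32.6% of all genes lower), and in macrophages 3 were higher and 17 lower (median -0.21 against -0.39 over all genes, with 19.6% higher and 28.5% lower). In macrophages TMM scaling without hormone and mitochondrial genes gave 6 higher and 7 lower, and in endothelial cells it gave 21 lower and 0 higher (median -0.25). In mesenchymal cells 16 were higher and 0 lower, with a median of 0.61 against -0.50 over all genes and 11.6% of all genes higher. With total UMI scaling the members called were all higher than in β-cells in each class, 73 in α-cells, 59 in δ-cells, 24 in macrophages, 71 in endothelial cells and 76 in mesenchymal cells. The share of all genes called under this scaling is not reported here, so these counts alone do not set the members apart from other genes. Under this scaling the median of all genes was 0.52, 0.57, 0.09, 0.73 and 0.32 in the same order. That of the members was 0.73, 0.41, 0.30, 0.65 and 1.45, below that of all genes in δ-cells and endothelial cells. The counts after TMM scaling also moved when single libraries were left out, in α-cells to 6 and 2 without untreated replicate 1 or 2 and to 25 without either NMMA library, and in endothelial cells to 16 and 13 without untreated replicate 1 or 2. They moved to 4 and 7 in macrophages and to 0 and 8 in δ-cells without the same 2 libraries, and in mesenchymal cells to 0 without either of them, to 7 without either NMMA library and to 28 without either library of cytokines with NMMA.

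Single members stood apart from the rest of the class in these comparisons. In α-cells Rps27l (0.83, edgeR adjusted p = 9.12e-07), Rpl23a (0.70) and Rplp2 (0.59) had the smallest adjusted p, and Rpl10, at -0.37 (adjusted p = 0.0326), was the 1 member called lower. In δ-cells these were Rplp0 (-0.71), Rpl29 (-0.60) and Rpl36 (-0.55), in macrophages Rpl5 (-0.86), Rpl4 (-0.89) and Rps6 (-0.83), the small subunit protein phosphorylated after mTOR signaling, and in endothelial cells Rpl38 (-1.32), Rpl41 (-1.10) and Rpl10 (-0.92). Rps26 (1.38), Rpl10a (1.15) and Rpl22 (1.14) were the first in mesenchymal cells. Rpl38, whose loss in mice changes the pattern of the axial skeleton, was at 509 and 1124 CPM in untreated β-cells and at 427 and 903 in untreated endothelial cells, although the members together held a larger share of the UMIs of endothelial cells. Of these, Rpl29 and Rpl36 in δ-cells and Rpl10 in endothelial cells and in α-cells turned to a difference above 0 with total UMI scaling (0.0029, 0.047, 0.12 and 0.16). That scaling raised the median of all genes in these classes as well.

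The replicates differed in the level of 2 members by more than 4-fold in every condition. Rpl13a, a large subunit protein known for its release after IFN-γ to repress translation of inflammatory mRNAs, had 102.1 CPM in untreated β-cells of replicate 1, 137.5 after cytokines alone, 141.3 where NMMA was added to them and 110.7 after NMMA alone. The values of replicate 2, in the same order of conditions, were 1627, 1902, 1617 and 1596. The 4 values of a replicate lay close together and far from those of the other, with folds between 11.4 and 15.9. Rpl27, also of the large subunit, had 121.1, 224.2, 187.4 and 157.4 in replicate 1 and 689.4, 1046, 827.1 and 746.6 in replicate 2, with folds between 4.41 and 5.69. Among all genes whose larger replicate count reached 20 UMIs in each condition, 73 of 10844 (0.673%) differed so far in β-cells. Over 6-fold there was 1 member, Rpl13a. Next was Rps28, with 270.5 and 915.6 in untreated β-cells and folds between 2.92 and 3.38, below the 4-fold limit.

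Both genes were higher in replicate 2 in every class. Over the 22 pairs of class and condition with both replicates, Rpl13a was 6.54 to 15.9 times higher in replicate 2 (median 11.6), and Rpl27 was 3.36 to 9.88 times higher (median 5.56). Both passed 4-fold in every condition in α-cells and endothelial cells, and in macrophages Rpl13a did. In δ-cells and mesenchymal cells both passed in every condition but cytokines alone, where replicate 1 was left out. When cells were clustered with the members, Rpl27 passed in macrophages as well. The median member was 1.11 times higher in replicate 2 in β-cells. With all deposited barcodes in place of named β-cells the same 2 genes were found. In β-cells both genes were higher with cytokines than untreated within each replicate, and with the replicate as a block Rpl13a was called higher with cytokines than untreated in β-cells (edgeR adjusted p = 9.49e-05), against 0.887 without.

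**Figure D4:**
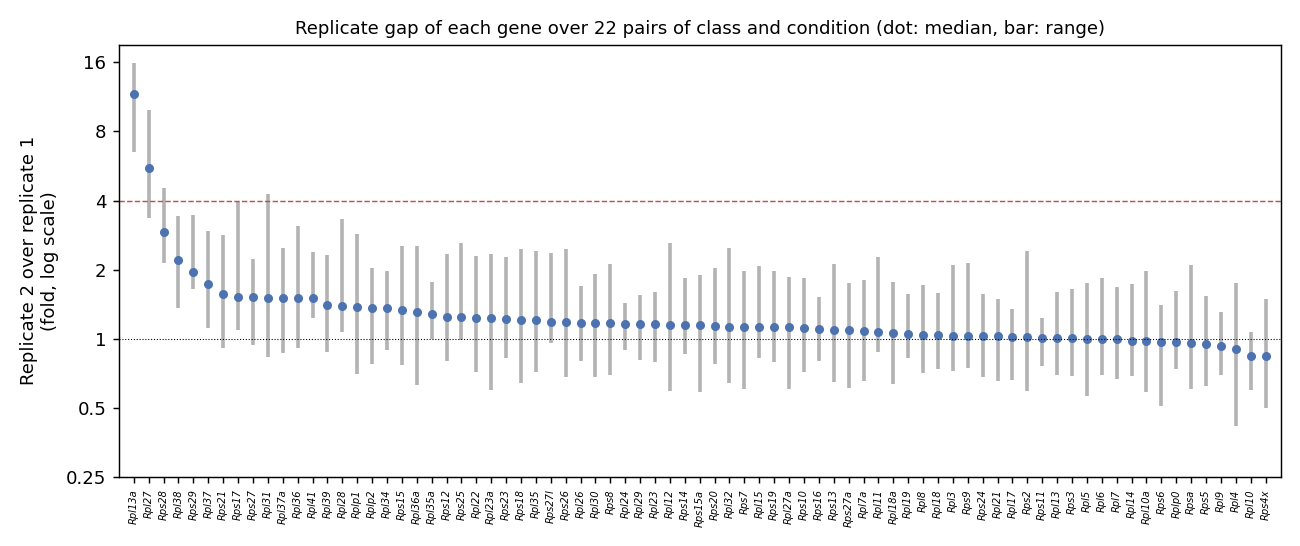
Fold of replicate 2 over replicate 1 in CPM (y axis, log scale) for the ribosomal protein genes of the 6 classes (x axis), with a line at 4-fold. Rpl13a (median 11.6) and Rpl27 (median 5.56) stand highest by their medians, followed by Rps28 (median 2.93).

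The replicates were counted by different versions of CellRanger, 3.0.0 and 6.0.0, with gene lists of 31053 and 32285 entries, so that pool, version and list cannot be told apart. Rpl13a lies on the minus strand of chr7:45125558-45128761 and Rpl27 on the plus strand of chr11:101442298-101445529. Rpl13a is overlapped on the same strand by Gm45713, an entry of the first list alone, which has 0 UMIs in all 4 libraries of replicate 1. Rpl13 is overlapped in the same way by Gm20388, also with 0 UMIs, and had no gap (2126 and 1950 CPM in untreated β-cells). Rpl27 overlaps no gene, but 88.0% of the 351 stretches of 50 bases in the last 400 bases of its transcript recur in Rpl27-ps3, a pseudogene entry of the first list alone, which held 13.6 to 22.7 CPM over all barcodes. Rps12 shares 96.0% of its stretches with Rps12-ps3, also in the first list alone, and had 960.2 and 1149 CPM in untreated β-cells. Of the 80 members 10 share such stretches with entries of the first list alone and 2 with entries of the second, so that their reads could be divided differently. Members with shorter transcripts tended to be higher in replicate 2 in β-cells (Spearman rho -0.562 over 77 members, which share the libraries). What sets the gap was not tested.

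Other genes of translation were described by lists beside the members. Of 9 genes for ribosomal or ribosome-bound proteins that the symbol rule leaves out, 7 rose in β-cells with cytokines and 0 fell (median log2 change 0.72), where 23.7% of all genes were called higher, among them Fau, which encodes a fusion with a ribosomal protein (0.72, edgeR adjusted p = 0.0102), and Rack1, a signaling scaffold on the small subunit (0.73, adjusted p = 0.00293). Of 18 tested mRNAs with a TOP tract that do not encode ribosomal proteins 13 rose and 0 fell (median 0.59), among them Npm1, the nucleolar chaperone nucleophosmin (1.06, adjusted p = 0.000330), and Tpt1 (0.62, adjusted p = 0.00725). Eef1a1, the elongation factor, had 0.52 with an adjusted p of 0.0618. Against cytokines with NMMA 4 of the first list and 9 of the second were higher and 0 lower, where 8.98% of all genes were called higher.

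Of 45 genes of ribosome assembly 27 rose and 2 fell in β-cells (median 0.57), where 23.7% of all genes were called higher and 22.4% lower, and 22 were higher and 0 lower than with cytokines and NMMA (median 0.53). Nop58, of the box C/D particles that methylate ribosomal RNA, had a log2 change of 1.06 (adjusted p = 0.000520), Ncl, the nucleolar protein nucleolin, 0.71 (adjusted p = 0.00288), and Eif6, which keeps the large subunit from joining the small one, 2.19 (adjusted p = 2.95e-05). Of 13 genes of ribosome surveillance and storage 5 rose and 0 fell (median 0.29), with the largest values for Zfp598, the ubiquitin ligase that senses collided ribosomes (1.48, adjusted p = 6.50e-05), and Mdm2, the p53 ligase that free ribosomal proteins bind (0.87, adjusted p = 0.000430). Of 78 genes for mitochondrial ribosomal proteins, which a separate set of genes encodes, 36 rose and 3 fell in β-cells (median 0.38).

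In α-cells few mitochondrial ribosomal protein genes were called. Of 78, 3 rose and 8 fell (median -0.14) with cytokines against untreated, where 13.6% of all genes were called higher and 9.39% lower, so that the share that fell is near that of all genes. Of 43 tested assembly genes 13 rose and 0 fell (median 0.49), of 18 TOP mRNAs 15 rose and 0 fell (median 0.86), of 13 surveillance genes 4 rose and 0 fell (median 0.41), and of 9 genes outside the rule 5 rose and 0 fell (median 1.005). In endothelial cells 1 of 75 mitochondrial ribosomal protein genes fell (median -0.24), where 1.75% of all genes were called lower, and in macrophages 0 of 70 were called (edgeR, median -0.15), where 4.3% of all genes were called. Of 3 pseudogene entries that passed the filter 3 rose in α-cells and 2 in β-cells, and their reads can be those of the genes they copy.

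**Figure D5:**
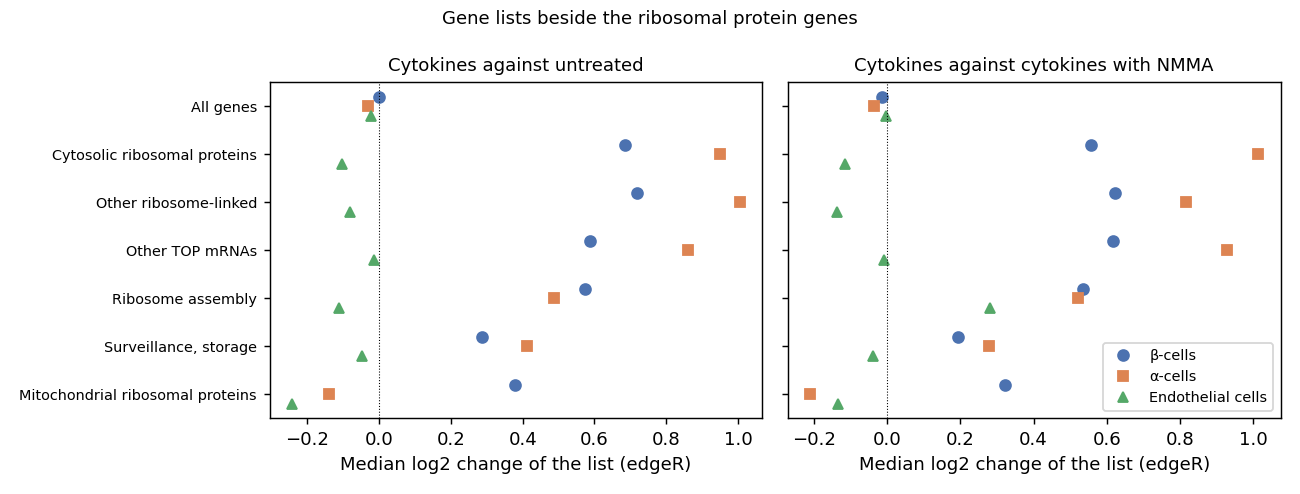
Median log2 change (x axis) of all genes, the cytosolic ribosomal protein genes and the other lists of translation genes (y axis). Points are β-cells, α-cells and endothelial cells, and the panels are cytokines against untreated and cytokines against cytokines with NMMA. Against untreated, the cytosolic members stand at 0.69 in β-cells and 0.95 in α-cells. The mitochondrial ribosomal protein genes stand there at 0.38 in β-cells and -0.14 in α-cells.

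Over the 8 β-cell libraries the genes of these lists whose level followed the summed members best were Serbp1, which binds idle ribosomes (Pearson r = 0.980), Ncl (0.965) and Sbds, which helps to release Eif6 (0.962). Serbp1 was at 135 and 164.4 CPM after TMM scaling in untreated β-cells, 239.2 and 251.2 with cytokines, 158.3 and 175.8 with cytokines and NMMA, and 150.5 and 166 with NMMA alone. Its cytokine-treated libraries were the highest of the 8. The libraries fall into the cytokine-treated pair and the other 6 and share depth and scaling, so that r describes this division.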

How the data were processed

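The authors deposited 1 matrix of raw UMI counts per library, made by CellRanger (versions 3.0.0 for replicate 1 and 6.0.0 for replicate 2, per the file headers; mm10, per the labels' processing notes). Barcodes were kept where mitochondrial UMIs were at most 10% and detected genes at least 200, up to 5500 in replicate 1 and 6500 in replicate 2, and clustered without the members (scanpy 1.11.5, leidenalg 0.10.2, Python 3.11.15). Counts of the 30406 gene IDs in both lists, which hold at least 99.6524% of the UMIs of each library, were summed per class and library (at least 10 cells) and tested by the quasi-likelihood method of edgeR 4.0.16 under R 4.3.3, with TMM scaling, robust dispersions, the default filter on low counts and a threshold of 0.05 on p-values adjusted by Benjamini-Hochberg over all genes tested. The procedure was tested on simulated data, where calls held more false ones than the threshold allows in most comparisons and few of the changes built in were recovered in the smaller classes. DESeq2 1.42.0, other scalings, doublet removal and leaving out each library were alternatives. The replicates of β-cells deviate together (r from 0.657 to 0.75 over 6 pairs of conditions, 12772 genes), and the pool was used as a block in an alternative fit. Named genes were the 5 largest and smallest changes in β-cells, the 5 most abundant members, members called against the majority or over 4-fold apart between replicates, restricted paralogs, stalk genes and, for each difference between classes, the 3 members with the smallest adjusted p. Rps4l was not analysed here, and a few other genes are not reported here. The members and lists were chosen with earlier results of these data known.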

Additional observations from a re-analysis of the deposited data

Results flagged for a closer look

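The effect of cytokines on some of the members was lower in endothelial cells and macrophages than in β-cells in tests of the difference itself (edgeR, 2 classes in 1 fit with the library as a block). In endothelial cells it was lower than in β-cells for 27 of 77 members, where 3.68% of all genes were called lower, with the smallest adjusted p for Rpl3 (-1.43 on the log2 scale), Rpl10a (-1.32) and Rps14 (-0.91). In macrophages it was lower for 16 of 77 (2.65% of all genes), led by Rps27a (-1.03), Rps18 (-1.05) and Rps15a (-1.03). In α-cells it was lower for 1 of 77, Rps27l (-0.70), which is no larger a share than the 2.27% of all genes called lower, while the median difference over the members was 0.34 and 30 had an unadjusted p below 0.05 (0.065 and 4 with total UMI scaling). How many of all genes reached such an unadjusted p was not counted. In δ-cells and mesenchymal cells 0 members were called by edgeR (18 and 0 with an unadjusted p below 0.05, median differences -0.44 and -0.20). Each of the counts above 0 fell to 4 or fewer when the untreated or the cytokine-treated library of replicate 1 was left out.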

How the results depend on the processing

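Leaving out 1 library at a time moved the counts of called members, in β-cells from 41 to 64 (cytokines against untreated) and from 1 to 41 (against cytokines with NMMA), and from 0 to 0 for the other 2 comparisons. The ranges were 29 to 65 and 26 to 61 in α-cells, 0 to 4 and 0 to 0 in δ-cells, 0 to 0 in macrophages, 0 to 1 and 0 to 0 in endothelial cells, and 0 to 1 and 0 to 0 in mesenchymal cells. For levels against β-cells they were 2 to 25 (α-cells), 0 to 10 (δ-cells), 4 to 23 (macrophages), 13 to 47 (endothelial cells) and 0 to 28 (mesenchymal cells), and for differences in cytokine effect 0 to 6 (α-cells, among them 6, 1, 4 and 6 mostly in the opposite direction), 0 to 55 (macrophages) and 2 to 40 (endothelial cells). The log2 ratios of shares ranged from 0.35 to 0.55 in β-cells, 0.34 to 0.68 in α-cells, 0.36 to 0.62 in δ-cells, 0.15 to 0.20 in mesenchymal cells, -0.49 to -0.16 in macrophages and -0.39 to -0.19 in endothelial cells.

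Total UMI scaling gave 36 and 8 calls in β-cells, 31 in α-cells and 6 in δ-cells (cytokines against untreated), 66 for the effect in endothelial cells, and, for levels against β-cells, 73 (α-cells), 76 (mesenchymal cells) and, against the direction of the TMM result, 59 (δ-cells), 24 (macrophages) and 71 (endothelial cells). For these levels it also moved the median of all genes, to 0.57 in δ-cells, 0.09 in macrophages and 0.73 in endothelial cells. TMM scaling without hormone and mitochondrial genes gave 13 (levels) and 47 (effect) in macrophages and 21 and 65 in endothelial cells. With the replicate as a block there were 74 calls against cytokines with NMMA, 18 for cytokines with NMMA and 6 for NMMA in β-cells, and 1 each in δ-cells and macrophages, and no other count moved beyond 1.5 times. DESeq2 gave 1 for cytokines with NMMA in β-cells and 1 in endothelial cells. Clustering with the members gave 2 and 33 for the effects in α-cells and macrophages, a 6-fold limit gave 1 member with a gap in β-cells, and shares without hormone and mitochondrial genes gave 0.28 in β-cells and 0.23 in δ-cells. Clustering with the members or a 3-fold limit gave 2 members with a gap in macrophages. The share of all genes called is reported only for the main fits and for some fits with the replicate as a block. The cause of these shifts was not tested.

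Of the single genes, in β-cells against untreated, Rpl41 (-0.017 to 0.59 over the libraries left out), Rps28 (-0.058 to 1.98), Rpl27 (-0.59 to 2.58) and Rpl13a (-2.38 to 3.51) turned without cytokines replicate 2, and Rpl13a (-0.42) without untreated replicate 1. Against cytokines with NMMA Rpl41 turned with total UMI scaling (-0.13), without cytokines and NMMA replicate 1 (-0.16) and without cytokines replicate 2 (-0.21, with 0.39 as the highest value), and Rps26 with total UMI scaling (-0.017). For levels, Rpl29 (0.0029) and Rpl36 (0.047) in δ-cells and Rpl10 in endothelial cells (0.12) and in α-cells (0.16) turned with total UMI scaling, which raised the median of all genes there as well. In all, 254 of the values of the comparisons kept their direction and stayed within their limits, 70 moved and 7 turned, and of those of single genes 664 kept their call, 95 lost it, 27 gained it, 5 moved and 13 turned. The small classes limit what can be called: cytokine-treated libraries hold 15 and 23 endothelial cells, 25 and 29 macrophages, 12 δ-cells and 18 mesenchymal cells.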

Other observations

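The 139 cells led by Ppy and Pyy, which were given no cell type name, had a share of member UMIs of 7.32% and 8.72% untreated (38 cells in each replicate), 13.3% with cytokines in replicate 2 (10 cells) and 5.504% and 10.5% with NMMA (21 and 19 cells). The cytokine-treated library was the highest of these 5, and the other libraries held fewer than 10 such cells. Insulin mRNAs made up 15.1% of its UMIs, against 0.638% and 0.803% untreated and 1.56% and 10.2% with NMMA, and their part in the share was not tested.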
